A study of Mus musculus with 30 samples.

Results

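The genes described here were those of the MHC class II system of mouse B cells: Ciita, the class II transactivator; Cd74, the invariant chain; the classical chains H2-Aa, H2-Ab1 and H2-Eb1; the peptide-exchange chains H2-DMa and H2-DMb2; and the DO chains H2-Oa and H2-Ob. They were chosen by name, as every probe set of the array annotated to a single one of these symbols, which gave 9 of the 12183 genes tested and 19 of 45101 probe sets. All 19 passed the filter on dim signals, and each gene is given by its probe set of highest mean unless another is named. Splenic B cells of C57BL/6, B1-8i mice, enriched as resting mature cells, were profiled in 10 groups of 3 arrays, each array from the cells of one mouse. The Irf4+/+ cells (wild type) were taken unstimulated at day 0 and after 1 and 3 days with CD40L and IL-2, IL-4 and IL-5. The Irf4-/- cells, from mice that also carry an Irf4 gene induced by doxycycline (DOX), were taken at day 0 and, under the same stimulation, at days 1 and 3 with zero DOX, low DOX (16 ng/mL) or high DOX (100 ng/mL). The B1-8i background was common to both genotypes, doxycycline was given to Irf4-/- cultures only, and the promoter of the inducible gene is not stated in the sources used here. Both DOX doses were set by the submitters to yield few or many plasma cells.

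MHC class II molecules are pairs of an alpha and a beta chain that carry peptides from internalised antigen to the B cell surface, where helper T cells read them. The invariant chain escorts the new pairs and fills their groove, DM exchanges the remnant of the invariant chain for peptide, and DO, found mainly in B cells, restrains DM. The CIITA protein binds no DNA itself; it joins a complex of RFX, CREB and NF-Y proteins on a conserved promoter module shared by the class II genes, and its loss is a known feature of plasma cells, where the repressor encoded by Prdm1 acts on Ciita. C57BL/6 mice make the I-A molecule from H2-Aa and H2-Ab1 and show no I-E molecule, since the partner chain of H2-Eb1 is not made in this strain.

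In RefSeq's GRCm38.p6 annotation 7 of the 9 genes lie on chromosome 17, from H2-Oa at 34092379 to the end of H2-Eb1 at 34316674, while Ciita (chromosome 16, 10480014 to 10531064) and Cd74 lie elsewhere. The promoter stretches below are shown because the shared module is what these genes have in common outside the array values. RefSeq promoter windows of 300 bases, from 250 before to 50 after a start site, were at hand for 6 of the 9 genes, and 4 of these held GCAAC, the core of the X box read by RFX, followed on the gene's strand by ATTGG, the Y box read by NF-Y. The capitals mark both motifs, read 5′ to 3′ on the strand of the gene.
H2-Oa, chr17:34092295-34092348, plus strand: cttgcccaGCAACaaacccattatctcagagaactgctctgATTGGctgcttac
H2-Ob, chr17:34238810-34238860, plus strand: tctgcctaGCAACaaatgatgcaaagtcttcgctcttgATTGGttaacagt
H2-Aa, chr17:34287859-34287912, minus strand: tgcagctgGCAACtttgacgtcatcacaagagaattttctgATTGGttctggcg
H2-Eb1, chr17:34305768-34305820, plus strand: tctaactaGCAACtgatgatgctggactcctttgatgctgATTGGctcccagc
GCAAC began 76 bases before the start site in H2-Oa, 87 in H2-Ob, 81 in H2-Aa and 91 in H2-Eb1, and ATTGG followed 33, 30, 33 and 32 bases later, counted from first base to first base. Of all 32851 promoter windows, 0.521% held this ordered pair at a distance of 20 to 40 bases on the gene's strand and 1.02% on either strand; GCAAC alone was present on either strand in 35.2% and ATTGG in 37.4%. The range of distances was set after these sequences had been read. The motifs do not overlap each other, and the windows of H2-DMa and H2-DMb2 held no such pair of these letters.

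Array medians ran from 171.38 to 199.67 intensity units over the 30 arrays. Neither of the Irf4 probe sets separated Irf4-/- from wild type by absence of signal, so they check the doxycycline labels but not the genotype. The set that followed doxycycline was between 7.23 and 8.07 on the log2 scale in wild type, 12.94 to 13.09 at low DOX on day 3 and 13.53 to 13.66 at high DOX on day 3. On day 1 a zero DOX array (replicate 2) read 10.77 and a low DOX array (replicate 2) read 7.69, each against its label, the other zero DOX arrays reading 7.80 and 7.84 and the other low DOX arrays 10.89 and 11.17. Labels were kept, and results that use the library labelled zero DOX day 1 replicate 2 or the library labelled low DOX day 1 replicate 2 are given with and without them where a call depends on them. Transcripts of Xist and the Y chromosome marked all 9 wild type arrays as female, and among Irf4-/- arrays those numbered 1 and 2 as male (14 arrays) and those numbered 3 as female (7 arrays).

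Ciita, the gene on which the others depend, moved over the widest range of the members together with H2-Oa and H2-Ob. On the log2(intensity + 16) scale used throughout, its wild type arrays read 11.53, 11.43 and 11.34 at day 0, then 11.03, 10.96 and 11.15 at day 1, and 11.71, 11.86 and 11.84 at day 3. The wild type level was therefore lowest at day 1 and highest at day 3, with no overlap between the days. Without doxycycline the Irf4-/- arrays read 11.19, 11.17 and 11.34 at day 0, 11.12, 11.10 and 11.37 at day 1, and 11.95, 12.06 and 11.97 at day 3. Low DOX arrays read 10.98, 11.22 and 11.28 at day 1 and 11.10, 11.36 and 11.44 at day 3, and high DOX arrays 10.59, 11.00 and 10.94 at day 1 and 10.08, 10.53 and 10.76 at day 3. Group means ran from 10.46 ± 0.35 (SD, n = 3) at high DOX on day 3 to 11.99 ± 0.06 (SD, n = 3) at zero DOX on day 3, a 2.90-fold range. In the order of means, the 8 lowest groups each overlapped their neighbour, whereas wild type day 3 stood above wild type day 0 and zero DOX day 3 above wild type day 3.

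**Figure D1:**
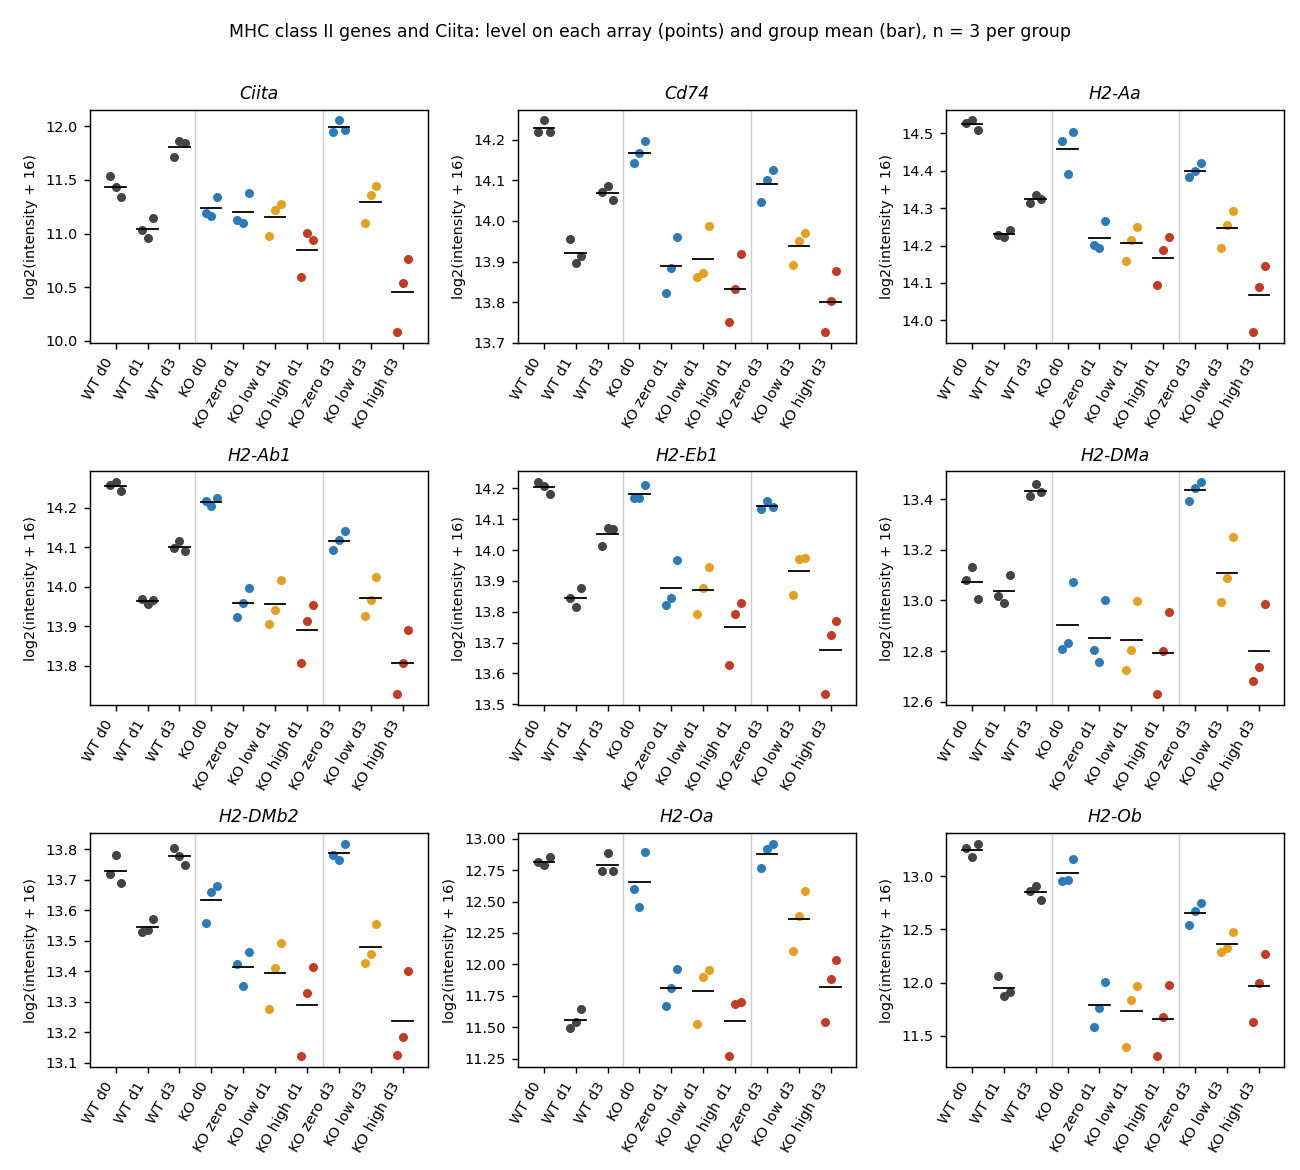
Each panel shows one gene, with log2(intensity + 16) of each array on the vertical axis (points, n = 3 per group, in the order of replicate number), group means as bars, and the 10 groups on the horizontal axis; the vertical axes differ between panels. On day 3 the high DOX points lie below the zero DOX points in all 9 panels, and Ciita falls from a mean of 11.99 to 10.46.

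The other 8 genes moved over ranges from 1.34-fold (Cd74) and 1.36-fold (H2-Ab1) to 2.51-fold (H2-Oa) and 3.02-fold (H2-Ob) between their lowest and highest group means. Within Irf4-/- groups the arrays were ordered by replicate number. Replicate 3 was the highest in 60 and replicate 1 the lowest in 54 of 63 sets of one gene in one group. The labels do not say what same-numbered cultures shared, and number 3 also differed in sex from numbers 1 and 2. In wild type no number stood out, replicate 2 being highest in 13, replicate 3 in 8 and replicate 1 in 6 of 27 such sets. Same-numbered Irf4-/- cultures also deviated together over all genes, so differences within a replicate number are given beside the doxycycline comparisons.

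Wild type stimulation was followed by a fall of class II transcripts at day 1 and a recovery by day 3. At day 1, 8 of 9 members were lower than at day 0 and none higher; 81.5% of all genes tested were called in either direction and 47.6% were called lower, so being called was common here. In bulk cultures such as these, fewer cells with a transcript and less of it per cell cannot be told apart. The median of the members was -0.31 and that of all genes -0.15 on the log2 scale. The DO chains fell furthest: H2-Oa, at 12.81, 12.79 and 12.85 on day 0, read 11.50, 11.54 and 11.65 on day 1, a difference of -1.25 ± 0.14 (SE; limma adjusted p = 1.81e-08). H2-Ob fell by 1.30 ± 0.15 (SE; adjusted p = 4.53e-08), from 13.18 to 13.30 on day 0 to 11.87 to 12.06 on day 1. The falls of Cd74, H2-Aa, H2-Ab1 and H2-Eb1 lay between 0.29 and 0.36 on that scale, H2-DMb2 fell by 0.18, and H2-DMa differed by -0.04 (adjusted p = 0.71). Ciita differed by -0.39 ± 0.13 (SE; adjusted p = 0.00874), a call that was lost when each array was centred on its median (-0.23, adjusted p = 0.11) and when the probe sets of a gene were averaged (0.01, adjusted p = 0.95).

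Between days 1 and 3 of wild type culture 8 of 9 members rose (43.3% of all genes were called higher), led by H2-Oa at 1.23 ± 0.14 and H2-Ob at 0.90 ± 0.15, followed by Ciita at 0.76 ± 0.13 (differences of log2 levels, SE). H2-Aa differed by 0.09 ± 0.04 (SE; limma adjusted p = 0.066). The median of all genes also shifted upward, by 0.12, and with arrays centred on their medians 4 members were called. Day 3 against day 0 gave calls in 7 of 9 members, where 65.3% of all genes were called, so being called was common. Ciita was higher by 0.37 and H2-DMa by 0.36. Cd74, H2-Aa, H2-Ab1, H2-Eb1 and H2-Ob were lower by between 0.15 and 0.40, and H2-DMb2 (0.05) and H2-Oa (-0.03) were not called. Leaving out 1 array gave a count of 5 or 6.

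Markers of several cell types moved over the same days in wild type cultures. Of all genes, 47.6% were called lower at day 1 than at day 0 and 43.3% higher from day 1 to day 3. At day 1, 6 of 6 B cell markers were lower than at day 0 (median -0.96), as were 6 of 6 T cell (median -0.86), 4 of 5 NK (median -1.01), 7 of 12 myeloid (median -0.48, 1 higher) and 5 of 7 dendritic markers (median -0.50, 2 higher). The summed intensity of the 6 B cell markers ran from 57081 to 59754 at day 0, 36856 to 38754 at day 1 and 50731 to 52650 at day 3. From day 1 to day 3, 6 of 6 B cell (median 0.71), 4 of 6 T cell (median 0.29) and 3 of 5 NK markers (median 0.94) were higher, while myeloid markers had 2 higher and 2 lower of 12. The part of these shifts in the class II time course was not tested.

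Irf4-/- cells without doxycycline also fell at day 1 and rose by day 3. At day 1, 7 of 9 members were lower than at day 0 (30.1% of all genes were called lower), H2-Ob by 1.24 and H2-Oa by 0.84, and Ciita differed by -0.04 ± 0.13 (SE; limma adjusted p = 0.82). By day 3 all 9 had risen above day 1 (25.9% of all genes were called higher), from 0.16 in H2-Ab1 to 1.07 in H2-Oa, with Ciita at 0.79 ± 0.13 (SE; adjusted p = 1.69e-05). Against day 0, Ciita (0.76) and H2-DMa (0.53) were higher and H2-Ob (-0.37) lower at day 3, 3 calls where 62.4% of all genes were called. With the replicate number as a block, Cd74 (-0.08, adjusted p = 0.042) and H2-Ab1 (-0.10, adjusted p = 0.013) were also called lower. The block also called H2-DMb2 (0.16, adjusted p = 0.010) and H2-Oa (0.23, adjusted p = 0.015) higher. In these cultures 4 of 6 B cell markers were lower and 1 higher at day 1 than at day 0 (median -0.85), and 5 of 6 T cell (median -0.50), 5 of 5 NK (median -1.56) and 6 of 12 myeloid markers (median -0.56, 1 higher) were lower. From day 1 to day 3, 6 of 6 B cell (median 0.96), 5 of 5 NK (median 2.34), 3 of 6 T cell (median 0.20) and 4 of 12 myeloid markers (median 0.31) were higher, and their part in the time course was not tested.

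Zero DOX Irf4-/- against wild type gave no call in the main probe set of any member at any time. The dimmest Ciita set was called higher at days 0 and 3, as given further on. The genotypes also differed in sex, with all 9 wild type arrays female and 14 Irf4-/- arrays male. Of 12 myeloid markers, 10, 11 and 9 were higher in zero DOX Irf4-/- arrays at days 0, 1 and 3. These differences cannot be told apart from loss of Irf4 here. At day 0, zero DOX Irf4-/- arrays against wild type differed by -0.22 (H2-Ob) to -0.02 (H2-Eb1), at day 1 by -0.18 (H2-DMa) to 0.25 (H2-Oa), and at day 3 by -0.19 (H2-Ob) to 0.19 (Ciita) in log2 level. limma called 0 of 9 each time, and 0 had an unadjusted p under 0.05, while 31.5%, 49.6% and 34.9% of all genes were called. The groups of 3 arrays did not overlap in 6 members at day 0, where all 9 differences were negative and 36.1% of all genes were apart. With arrays centred on their medians 5 members were called lower at day 1, and with sex as a term 4 were called higher at day 3. The change from day 0 did not pass the test of a difference between genotypes in any member, at day 1 (0 of 9, 1 with an unadjusted p under 0.05; 43.9% of all genes) or at day 3 (0 of 9, 2 with an unadjusted p under 0.05; 25.9% of all genes).

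At 1 day of induction the class II genes of DOX cultures were not called different. Low minus zero DOX differences lay between -0.05 and 0.02. By limma 0 members, like 0% of all genes, were called (0 members had an unadjusted p under 0.05). Each of these groups holds a replicate 2 array that read against its label at the Irf4 set that followed doxycycline. The comparison may therefore mix the doses, and its lack of calls cannot show that low DOX had no effect. Without both arrays the count was also 0. High minus zero DOX differences were negative in all 9, from -0.35 ± 0.13 (SE) in Ciita to -0.05 in H2-Aa; 0 were called, 2 had an unadjusted p under 0.05, and 2.75% of all genes were called. With the replicate number as a block Ciita was called at this time (adjusted p = 0.032). Its high minus zero DOX differences within a replicate number were -0.53, -0.09 and -0.43. The smallest of them was in number 2, which includes the library labelled zero DOX day 1 replicate 2. High against low DOX at day 1 gave 0 calls, 2 unadjusted p under 0.05 and 1.86% of all genes called. Against wild type day 1, high DOX cultures were lower in H2-DMa (-0.24) and H2-DMb2 (-0.26), 2 of 9 members against 9.76% of all genes called lower. Leaving out an array moved this count to 0 (high DOX replicate 1), 1 (high DOX replicate 2, or any 1 of the 3 wild type arrays) or 3 (high DOX replicate 3).

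On day 3 every member was lower with high DOX than with zero DOX. limma called 9 of 9 lower, where 24.2% of all genes were called lower, and the median difference was -0.55 for the members and 0.00 for all genes. The 3 high DOX arrays lay below the 3 zero DOX arrays in all 9, a separation found in 55.7% of all genes in either direction. The count was 9 in every alternative setting, including those that left out an array.

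Ciita showed the largest change of the members. Its zero DOX arrays read between 11.95 and 12.06 and its high DOX arrays between 10.08 and 10.76, a difference of -1.53 ± 0.13 (SE; limma adjusted p = 1.14e-09), or 2.90-fold lower. Within replicate numbers 1, 2 and 3 it fell by 1.87, 1.52 and 1.21. Ordered from the most negative difference, Ciita ranked 106 among the 12183 genes in this comparison.

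In their main probe sets the invariant chain and the classical chains changed less than Ciita. Cd74 differed by -0.29 ± 0.05, H2-Ab1 by -0.31 ± 0.04, H2-Aa by -0.33 ± 0.04 and H2-Eb1 by -0.47 ± 0.06 (log2 differences, SE). Each of these sets was between 1.22-fold and 1.38-fold lower. Dimmer sets of H2-Aa and H2-Ab1 gave larger differences, as given further on. H2-Eb1 read 14.13, 14.16 and 14.14 at zero DOX, 13.85, 13.97 and 13.97 at low DOX and 13.53, 13.72 and 13.77 at high DOX, with no overlap between the doses. H2-Aa read 14.38, 14.40 and 14.42 at zero DOX and 13.97, 14.09 and 14.14 at high DOX. These were among the brightest probe sets of the array: the highest H2-Aa value was 77.5% of the highest intensity anywhere in the table.

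The chains that govern peptide exchange were lower by 0.55 to 1.06 in their main probe sets. H2-DMa read 13.39, 13.44 and 13.47 at zero DOX and 12.68, 12.74 and 12.98 at high DOX (-0.63 ± 0.09, SE), and H2-DMb2, its partner, differed by -0.55 ± 0.07 (SE). H2-Oa read 12.76, 12.92 and 12.96 at zero DOX and 11.54, 11.89 and 12.04 at high DOX, which is 2.08-fold lower (-1.06 ± 0.14, SE; limma adjusted p = 1.09e-06). H2-Ob, the beta chain of DO, read 12.54, 12.67 and 12.75 against 11.63, 12.00 and 12.27 (-0.69 ± 0.15, SE; adjusted p = 0.000658). Whether members differed from each other was not tested, and probe sets of one gene also differed with their brightness, as given further on.

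Low DOX on day 3 gave intermediate levels. Against zero DOX, 8 of 9 members were lower (18.2% of all genes were called lower), with a median of -0.29 against -0.03 for all genes, Ciita at -0.69 ± 0.13 and H2-Oa at -0.52 ± 0.14 (SE). H2-Ob differed by -0.29 ± 0.15 (SE, limma adjusted p = 0.15). With the replicate number as a block it was called as well (adjusted p = 0.0091). All 9 were lower within each of the 3 replicate numbers, Cd74 by between 0.15 and 0.16. The count of calls rested on 1 array: without low DOX day 3 replicate 1 it was 2, and with arrays centred on their medians it was 5.

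High against low DOX on day 3 compares a pair of induced cultures. Of the 9 members 7 were lower at high DOX (6.09% of all genes were called lower), Ciita by 0.84, H2-Oa by 0.54, H2-DMa by 0.31, H2-Eb1 by 0.26, H2-DMb2 by 0.24, H2-Aa by 0.18 and H2-Ab1 by 0.16 on the log2 scale. Cd74 (-0.14, adjusted p = 0.063) and H2-Ob (-0.40, adjusted p = 0.097) missed the limma threshold. Both passed it with the replicate number as a block (adjusted p = 0.0051 and 0.0022). All 9 were lower within each replicate number. The count was 1 without high DOX day 3 replicate 1, 2 without low DOX day 3 replicate 3 and 1 when only the arrays of both groups were fitted.

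**Figure D2:**
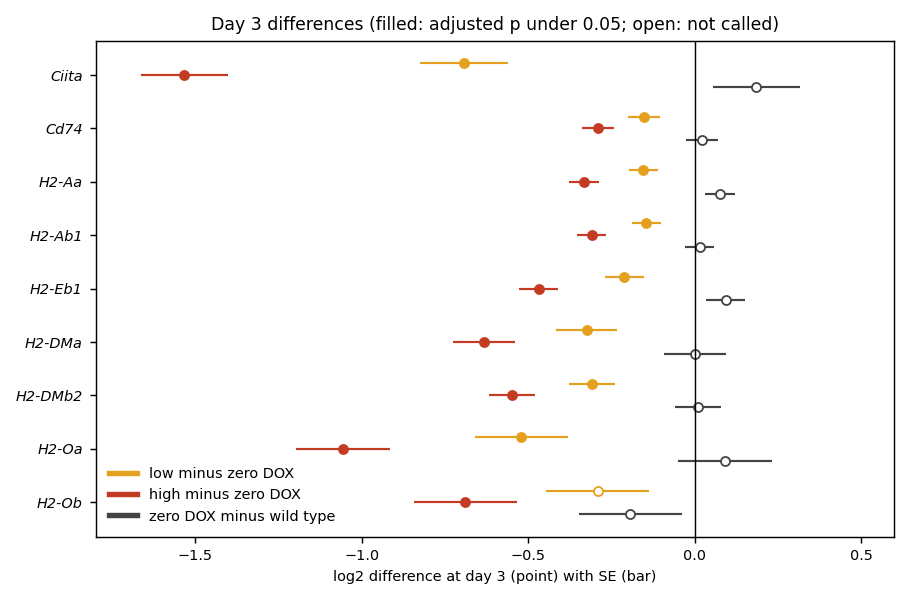
Differences of log2 level at day 3 are on the horizontal axis for each gene (point, with the standard error as a bar; filled points have a limma adjusted p under 0.05). High minus zero DOX lies furthest left in all 9 genes, low minus zero DOX lies between it and 0, and zero DOX minus wild type spans -0.19 to 0.19 with no filled point.

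Against wild type on day 3 both induced cultures were lower. High DOX cultures were lower than wild type in 9 of 9 members (19% of all genes were called lower), Ciita by 1.35 ± 0.13, H2-Oa by 0.97 ± 0.14 and H2-Ob by 0.88 ± 0.15 in log2 level (SE), and H2-Aa by 0.26 ± 0.04. Low DOX cultures were lower than wild type in 7 of 9 (15.3% of all genes were called lower), H2-Aa (-0.08) and H2-Eb1 (-0.12) not being called. That count fell to 2 without low DOX day 3 replicate 1, 4 without low DOX day 3 replicate 2, 3 without wild type day 3 replicate 2 and 3 with sex as a term. Comparisons of one day share their reference arrays, so their values stand side by side and are not independent.

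The DOX difference was larger at day 3 than at day 1. The difference of differences, high minus zero DOX at day 3 less that at day 1, was negative and called in 8 of 9 members (13.8% of all genes were called lower), from -1.18 ± 0.19 (SE) in Ciita to -0.23 ± 0.07 (SE) in Cd74. H2-Ob, at -0.56 ± 0.22 (SE, limma adjusted p = 0.063), was called with the replicate number as a block (adjusted p = 0.0012). For low DOX 2 members were called, Ciita (-0.65) and H2-DMb2 (-0.29), against 7.5% of all genes called lower. With the block 8 were called, and without the libraries labelled zero and low DOX day 1 replicate 2 the count was 0. Leaving out a single array gave 0 (low DOX day 3 replicate 1), 4 (zero DOX day 1 replicate 3), or 1, the last without low DOX day 1 replicate 2 or 3, low DOX day 3 replicate 2, zero DOX day 1 replicate 1 or 2, or any zero DOX day 3 array.

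Between days 1 and 3, when class II genes rose in wild type and zero DOX cultures, 1 of 9 members was called at high DOX. That was Ciita, lower at day 3 by 0.39 ± 0.13 (SE; limma adjusted p = 0.016; 27% of all genes were called lower). With the replicate number as a block H2-Aa (-0.10) and H2-Ab1 (-0.08) were also called lower, and H2-Oa (0.27) and H2-Ob (0.31) higher. The count was 3 without high DOX day 1 replicate 1 or high DOX day 3 replicate 3, 2 without high DOX day 3 replicate 1, both of them higher, and 0 without high DOX day 1 replicate 2. Low DOX cultures rose in 3 members, H2-Ob (0.63), H2-Oa (0.57) and H2-DMa (0.27), where 20.9% of all genes were called higher. The change between days was lower at high DOX than in wild type in all 9 members (25.1% of all genes were called lower), Ciita by 1.15 ± 0.19 and H2-Oa by 0.96 ± 0.20 (SE), the smallest being Cd74 (-0.18, adjusted p = 0.038). This count was 2 with arrays centred on their medians, 4 without high DOX day 3 replicate 1 or high DOX day 1 replicate 3, and 5 without high DOX day 3 replicate 2.

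Several probe sets report the same gene and give a view of how the array measures these transcripts. On day 3 all 19 were lower at high than at zero DOX with an adjusted p under 0.05 over all probe sets tested, from -0.29 (Cd74) to -1.84 (the dimmest Ciita set). Where a gene had sets of different brightness, the brightest gave the smallest difference in H2-Aa, H2-Ab1, H2-DMa and Ciita: in H2-Ab1 the set of mean intensity 16720 gave -0.31 and those of 13150 and 10380 gave -0.58 and -0.61. In H2-DMa a set of mean 8467 gave -0.63 and one of 866.6 gave -0.83. In H2-DMb2 the brightest set did not give the smallest difference. That set, of mean 11910, read 13.79 at zero and 13.24 at high DOX, and the set of mean 11770 read 13.77 and 13.23.

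**Figure D3:**
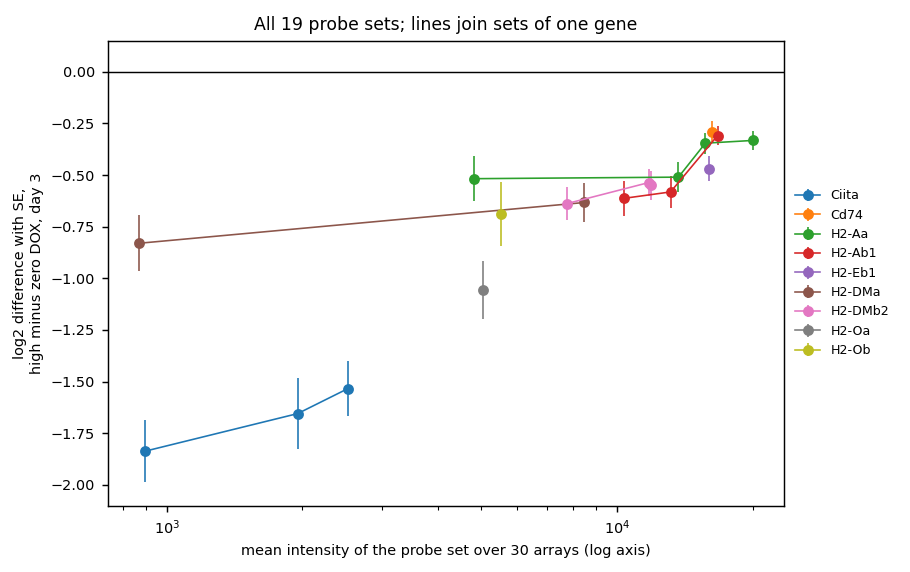
The log2 difference of high minus zero DOX at day 3 (vertical axis, with its standard error) is plotted against the mean intensity of each of the 19 probe sets over 30 arrays (horizontal log axis), with lines joining sets of one gene. All points lie below 0, the Ciita sets between -1.53 and -1.84 and the brightest sets of the other genes between -0.29 and -1.06.

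The dimmest Ciita set, of mean intensity 895.9, read another time course. In wild type it was 9.13 at day 0 and 9.88 at day 1, a rise of 0.75 ± 0.15 (SE; limma adjusted p = 8.8e-05), where the main set fell by 0.39 and the remaining set differed by -0.32 (adjusted p = 0.086). It was also higher in zero DOX Irf4-/- arrays than in wild type at day 0 (0.55, adjusted p = 0.0077) and at day 3 (0.81, adjusted p = 0.00017), where the other Ciita sets were not called. On day 3 its high minus zero DOX difference was -1.84, in the direction of the other sets. Over the 25 comparisons, wild type day 1 against day 0 was the only one in which a set and its gene's main set were both called, in opposite directions; at day 0 the main Ciita set differed between genotypes by -0.20 without a call.

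Genes of the surrounding pathway also changed on day 3. Of 13 other class II and antigen loading genes tested, 10 were lower and 1 higher at high than at zero DOX (median -0.51). Of all genes, 24.2% were called lower there. Marchf1, whose product marks class II for degradation, was lower by 1.68 ± 0.22, H2-Eb2 by 1.00 ± 0.18, Ifi30, the lysosomal thiol reductase, by 0.97 ± 0.07, and Cd83, which opposes that degradation, by 0.73 ± 0.07 (SE). The proteases Ctsd (-0.61), Ctsl (-0.53) and Lgmn (-0.51) were lower, Ctsb (0.18) and H2-Ea (-0.14) were not called, and Marchf8 was the gene that was higher (0.43). At low DOX 6 of the 13 were lower and 1 higher (median -0.30), where 18.2% of all genes were called lower. Against wild type day 3, zero DOX cultures had 4 of the 13 higher, Ctsl by 0.76, Ctsd by 0.69, Ifi30 by 0.41 and H2-Ea by 0.30. In that comparison 34.9% of all genes were called in either direction.

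Among 10 genes of the class II promoter complex and its coactivators, 6 were lower and 2 higher at high DOX on day 3. This was against zero DOX (median -0.22), where 24.2% of all genes were called lower. Rfx5, the RFX subunit that reads the X box printed above, was lower by 0.93 ± 0.12 (SE), and Kat2b, an acetyltransferase, by 0.31 ± 0.06 (SE). Rfxank, another RFX subunit, was lower by 0.37, while the third, Rfxap, was higher by 0.38 and Nfyb, a subunit that reads the Y box, by 0.28. Low DOX gave 5 lower and 2 higher (18.2% of all genes were called lower).

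Of 11 genes for factors that act at Ciita, 9 were lower and 1 higher at high than at zero DOX on day 3 (median -0.63). The share of all genes called lower in that comparison was 24.2%. Prdm1 was the gene that rose, by 3.20 ± 0.20 at high and 2.31 ± 0.20 at low DOX (log2 differences, SE). Pax5, the B cell identity factor, was lower by 1.12 ± 0.10, Spib by 1.03 ± 0.08, Irf1 by 0.72 ± 0.11, Spi1 (PU.1) by 0.67 ± 0.07, Ebf1 by 0.65 ± 0.08, Irf8 by 0.63 ± 0.05 and Stat6, the IL-4 signal transducer, by 0.56 ± 0.08. The brightest Irf4 set, which did not follow doxycycline, differed by 0.09 (adjusted p = 0.59). Without doxycycline, 8 of the 11 were higher than in wild type on day 3 and Prdm1 was lower by 1.70 ± 0.20 (SE). In that comparison 34.9% of all genes were called in either direction.

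**Figure D4:**
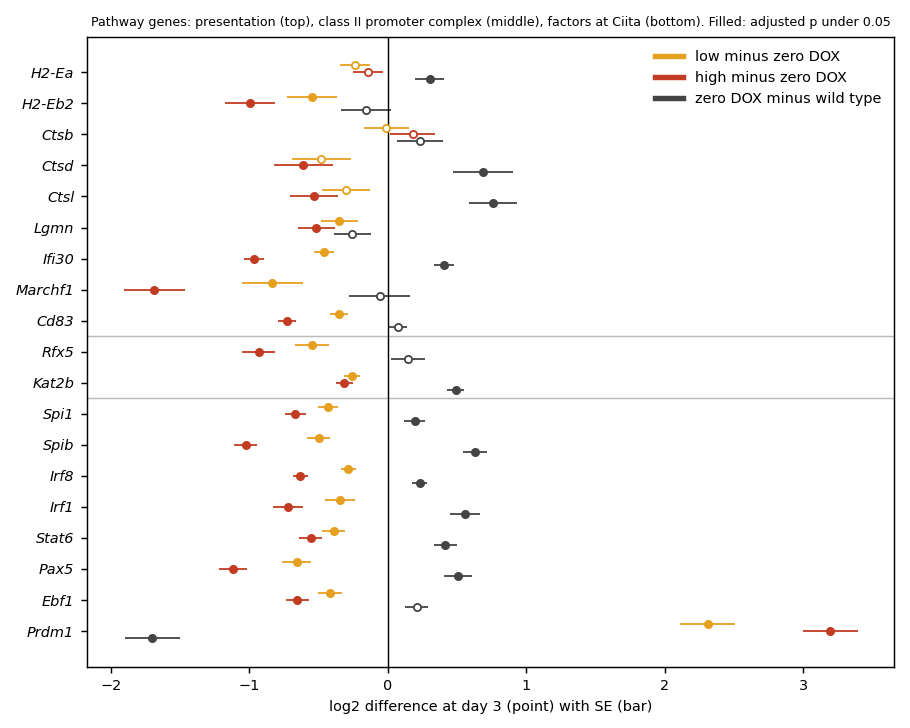
Day 3 differences of log2 level (horizontal axis; points with standard error bars, filled where the limma adjusted p is under 0.05) are shown for the named genes of the presentation pathway, the class II promoter complex and the factors at Ciita. The genes plotted are those that passed the size rule for naming, without Irf4; among them the high minus zero DOX points lie below 0 except for Prdm1 (3.20) and Ctsb (0.18), while Marchf8, Rfxap and Nfyb, also above 0, are not plotted.

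Markers of cell types moved in the same comparisons. Of all genes, 24.2% were called lower at high than at zero DOX on day 3, and the median difference was 0.00. The share called higher is not given here. Groups of 3 arrays were apart in 55.7% of all genes, in either direction. At high against zero DOX on day 3 all 9 plasma cell genes were higher (median 3.00), among them Jchain (6.93), Bhlha15 (4.68), Slpi (4.09), Fkbp11 (3.00), Sdc1 (2.99), Tnfrsf17 (2.07) and Xbp1 (0.94), and 5 of 6 B cell markers were lower (median -0.57). The summed intensity of the plasma cell genes ran from 8125 to 9207 at zero DOX, 21220 to 29144 at low DOX, 35087 to 40938 at high DOX and 27965 to 29083 in wild type on day 3. That of the 6 B cell markers ran from 52821 to 64519, 42825 to 47256, 35014 to 40609 and 50731 to 52650 in the same order. Low DOX against wild type on day 3 had 2 plasma cell genes higher and 1 lower of 9 (median -0.04). Of all genes, 15.3% were called lower there, with a median of -0.01, and the share called higher is not given here. The part of plasma cell number in these results was not tested.

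Myeloid cells also carry class II, and their markers moved too. Of 12 myeloid markers 9 were lower at high than at zero DOX on day 3 (median -1.92), their sum running from 8734 to 16333 at zero DOX, 3858 to 6421 at low DOX, 2397 to 3028 at high DOX and 2607 to 2923 in wild type. In zero DOX cultures 9 of 12 were higher than in wild type (median 2.02), where 34.9% of all genes were called in either direction. High DOX against wild type had 1 higher and 1 lower (median 0.05), where 19% of all genes were called lower. Of 7 dendritic markers tested, 2 were higher and 1 lower at high than at zero DOX (median 0.05). All 5 NK markers (median -1.91) and 3 of 6 T cell markers (median -0.31) were lower, and no erythroid marker passed the filter. None of the markers had the lowest value of the table, 1, on any array, which does not show that each was above background. The part of these cells in the day 3 differences was not tested.

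Over the 10 group means, Cd74, H2-Aa, H2-Ab1 and H2-Eb1 followed each other closely, with Pearson correlations between 0.98 and 0.99, whereas Ciita correlated with them at 0.69 to 0.79, with H2-DMb2 at 0.90 and H2-DMa at 0.88. These are descriptions over 10 groups that share arrays with the comparisons above, and they carry no test. Outside the members, the genes most like Ciita in their group means were Gm13012 (0.98), Sumf1 (0.98), Rassf2 (0.98), Rhog (0.96) and Lat2 (0.94). Those most like the mean of Cd74, H2-Aa, H2-Ab1 and H2-Eb1 were Sorl1 (0.995), Cd180 (0.98), Cyp4v3 (0.98), Marchf1 (0.98) and Itpkb (0.98).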

How the data were processed

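Total RNA was hybridised to Affymetrix 430 2.0 arrays. The authors normalized the deposited intensity values with the D-Chip PM-only model, per the series' design text; MAS5 is named in the submitters' processing notes with no role. Of 45101 probe sets, 34945 carried 1 gene symbol, and 34741 of these were updated by Entrez identifier through RefSeq GRCm38.p6.

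Sets above the table median (188.245) on at least 3 of 30 arrays were tested as log2(intensity + 16), and each of 12183 genes was represented by its set of highest mean (26095 sets tested). limma 3.58.1 (R 4.3.3) fitted 1 mean per group to all arrays (20 residual degrees of freedom); p-values were adjusted over 12183 genes by Benjamini-Hochberg and called under 0.05. With 3 against 3 arrays no exact permutation p can be below 0.1. The fit was also run on simulated arrays with independent noise. That run does not cover the shared deviation of same-numbered Irf4-/- arrays.

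Of the 25 comparisons, 3 interactions (DOX by day, and high DOX and wild type by day) were added after the data had been seen. The members and gene lists were chosen with earlier results of these data known. From a list, genes with a called difference of at least 0.5 in a genotype or dose comparison are named; other list genes were chosen after their values were seen. Replicates are mice; 2 of 3 were processed in parallel, which 2 not being stated. Same-numbered Irf4-/- arrays deviated together over genes in all 21 pairs of groups (correlations 0.30 to 0.86), unlike pairs with wild type (-0.31 to 0.25) or within it (-0.05 to 0.24), so the number was used as a block among Irf4-/- arrays. The Gapdh 3′ to 5′ log2 difference was 0.25 on Irf4-/- day 0 replicate 2 and at most 0.04 elsewhere. Alternatives were the pseudocount, filter, scaling, probe set choice, arrays fitted, array weights, variance trend, replicate blocks, a sex term and arrays left out.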

Additional observations from a re-analysis of the deposited data

Results flagged for a closer look

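Effects that differed between time points or genotypes, by a test of the difference itself, were the following. The high minus zero DOX difference changed between day 1 and day 3 in Ciita (-1.18), H2-Oa (-0.80), H2-DMa (-0.57), H2-DMb2 (-0.42), H2-Eb1 (-0.34), H2-Aa (-0.28), H2-Ab1 (-0.24) and Cd74 (-0.23), each a day 3 difference less a day 1 difference on the log2 scale. The low minus zero DOX difference changed in Ciita (-0.65) and H2-DMb2 (-0.29). Both calls were lost without the libraries labelled zero and low DOX day 1 replicate 2. They were also lost without low DOX day 3 replicate 1. The change from day 1 to day 3 differed between high DOX Irf4-/- and wild type cultures in Ciita (-1.15), H2-Oa (-0.96), H2-Ob (-0.59), H2-DMa (-0.39), H2-DMb2 (-0.28), H2-Eb1 (-0.28), H2-Ab1 (-0.22), H2-Aa (-0.19) and Cd74 (-0.18). Of all genes, 13.8%, 7.5% and 25.1% were called lower in these tests, in the order given. With arrays centred on their medians, 2 members were called in the last test. These tests were added after the data had been seen. Groups of 3 arrays were too small for a test of single outlying arrays.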

How the results depend on the processing

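Counts of members called out of 9 were 9 under every alternative for high against zero DOX and high DOX against wild type on day 3, and for zero DOX day 3 against day 1. Of 1471 values of called members under other settings, 1408 kept direction and threshold, 62 missed the threshold and 1 reversed (Ciita, wild type day 1 minus day 0, 0.0095 with probe sets averaged). With 1 array left out, 658 of 756 kept both, 98 missed the threshold and 0 reversed. The cause of the following shifts was not tested. Arrays centred on medians gave 4 calls for wild type day 3 against day 1, 5 for zero DOX against wild type at day 1, 5 for low against zero DOX at day 3, 7 for high DOX against wild type at day 1, 1 for low DOX by day and 2 for high DOX and wild type by day. Quantile normalization gave 2 for high DOX day 3 against day 1, 1 for high DOX against wild type at day 1 and 1 for low DOX by day; no filter gave 1 for the last. Averaged probe sets gave 0 for high DOX day 3 against day 1, 1 for zero DOX against wild type at day 3 and 4 for high DOX against wild type at day 1. Only the groups compared gave 0 for high DOX day 3 against day 1, 2 for zero DOX and 1 for high DOX against wild type at day 1, 1 for high against low DOX at day 3, and 2 and 1 for genotype by day 1 and by day 3. Array weights gave 5 for low and 4 for high DOX day 3 against day 1, 3 for zero DOX against wild type at day 1 and 5 for low DOX by day. The variance trend gave 5 for zero DOX day 3 against day 0, 2 for high DOX day 3 against day 1 and 1 for genotype by day 3. The replicate block over all arrays gave 6 for zero DOX day 3 against day 0, 4 for high DOX day 3 against day 1, 1 and 2 for zero DOX against wild type at days 0 and 1, 1 for genotype by day 1 and 6 for low DOX by day. The block nested in genotype gave 7, 5 and 8 for zero DOX day 3 against day 0, high DOX day 3 against day 1 and low DOX by day, and 1 for high against zero DOX at day 1; apart from those and the calls given with the results, it also called H2-Aa in wild type day 3 against day 1 (adjusted p = 0.027). The sex term gave 5 for zero DOX day 3 against day 0, 5 for high DOX day 3 against day 1, 2, 4, 1 and 3 for zero DOX at days 1 and 3, high DOX at day 1 and low DOX at day 3 against wild type, 1 and 1 for genotype by day 1 and 3, and 7 for low DOX by day. Without the day 1 libraries labelled zero and low DOX replicate 2 it was 0 for low DOX by day.

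Leaving out 1 array gave ranges of 0 to 3 for high DOX day 3 against day 1, 0 to 1 for zero DOX against wild type at day 0 (1 without zero DOX day 0 replicate 3) and at day 1 (1 without zero DOX day 1 replicate 3), 2 to 8 for low against zero and 1 to 9 for high against low DOX at day 3, 0 to 3 for high DOX against wild type at day 1, 2 to 7 for low DOX against wild type at day 3, 0 to 1 for genotype by day 1 (1 without zero DOX day 0 replicate 3), 0 to 4 for low DOX by day and 4 to 9 for high DOX and wild type by day. The brightness of the class II probe sets limits what their differences can show, and 3 arrays a group limit the precision.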

Other observations

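Probe sets that name a class II gene together with another gene were not counted among the members. A set for H2-Ob and Gm20506 had group means of 12.24 ± 0.07 in wild type, 12.25 ± 0.08 at zero DOX, 11.66 ± 0.24 at low DOX and 11.23 ± 0.25 at high DOX on day 3 (log2 levels, SD, n = 3), the order seen for the single-symbol H2-Ob set except that wild type and zero DOX were level. A pair of sets for H2-DMb2 and H2-DMb1 had day 3 means of 12.04 and 13.20 in wild type, 11.97 and 13.32 at zero DOX, 11.56 and 12.94 at low DOX and 11.15 and 12.58 at high DOX (log2 levels, the dimmer set first).

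H2-Ea, which encodes no working chain in this strain, still gave signal in its tested probe set. Whether it moved differently from the members was not tested. Its wild type mean fell from 10.42 ± 0.12 at day 0 to 8.59 ± 0.07 at day 1, whereas Irf4-/- arrays without doxycycline went from 10.42 ± 0.07 to 9.77 ± 0.15 (log2 levels, SD, n = 3). With low and high DOX its day 1 means were 9.74 ± 0.22 and 9.74 ± 0.08, close to zero DOX. The H2-Ea sets that did not pass the filter went from 7.18 to 6.91 and from 6.52 to 6.70 in wild type over that day. H2-Oa also fell more in wild type (-1.25) than in zero DOX Irf4-/- arrays (-0.84), a difference between genotypes that was not called.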
